A study of Mus musculus with 4 samples.

Results

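Serpins are a family of proteins with a common fold, most of which block proteases by a suicide mechanism: the protease cuts an exposed reactive loop, and the serpin then changes shape and holds the enzyme in a covalent complex. Hepatocytes secrete many of the clade a and clade c to g members into plasma, where they restrain neutrophil elastase, clotting factors, plasmin and complement proteases or, without inhibiting any protease, carry hormones. Clade b members lack a classical signal peptide and mostly act inside cells, in leukocytes and epithelia among others, and Serpinh1 of clade h is a collagen chaperone of the endoplasmic reticulum. The family was followed over 4 microarrays of mouse liver. Its members were all rows of the array table whose annotation gave exactly 1 gene symbol and whose symbol starts with Serpin, which made 48 genes on 48 rows, of 19938 genes with a row of their own. There were 15 members of clade a, 24 of clade b and 9 of clades c to i.

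The 4 groups were livers of mice labelled GHR/MDR2 double knockout, GHR knockout, MDR2 knockout and wildtype (WT), all labelled male and 8 weeks old. Each group had a single array of RNA from 3 livers pooled before hybridisation, so no replicate error exists and the precision is limited by the number of arrays. The gene Abcb4 encodes MDR2, the canalicular transporter that brings phospholipid into bile, and mice without it develop cholestasis and liver fibrosis. GHR is the growth hormone receptor. Strain, alleles and deleted exons are not given in the sources used here. By its title, the study concerned growth hormone resistance in liver fibrosis caused by cholestasis.

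In the check of the labels, Ghr intensity was 935 in the double knockout pool, 1395 in the GHR knockout pool, 4485 in the MDR2 knockout pool and 4944 in the WT pool. Abcb4 intensity was 689 in the double knockout, 1346 in the GHR knockout, 663 in the MDR2 knockout and 1120 in the WT pool. Which part of either gene the probes cover is not known here. Xist, the RNA of the inactive X chromosome of female cells, was at 17 in the double knockout, 1400 in the GHR knockout, 18 in the MDR2 knockout and 16 in the WT pool. The GHR knockout pool thus went against its label of male, although its Y-linked genes were also present, with Eif2s3y at 680 against 899, Kdm5d at 259 against 268 and Uty at 308 against 361 in the WT pool. Every difference that involves the GHR knockout pool carries this mismatch, whose part was not tested. The comparison of the double knockout with the MDR2 knockout pool does not use that array. All 15 hepatocyte markers, Alb and Ttr among them, were at 100 or more on at least 1 array, and their summed intensity was 135720 in the double knockout, 145759 in the GHR knockout, 139936 in the MDR2 knockout and 149134 in the WT pool.

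A level filter asked that the higher of the arrays compared reach an intensity of 100, the median over all rows with 1 symbol. No detection calls were used, so values under 100 may lie within background and a fold against it is not exact. Of the 48 members, 20 reached 100 on at least 1 array and 28 stayed under it on all 4. A difference was counted at 1.5-fold between single arrays. These differences describe 4 pools and have no test. The only test was limma on log2 intensity over all 4 arrays, with GHR loss and MDR2 loss as additive effects and Benjamini-Hochberg adjustment over 10764 genes. It has 1 residual degree of freedom and assumes that each effect is the same in both backgrounds. In whole liver, fewer cells of a type and less RNA per cell cannot be told apart.

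**Figure D1:**
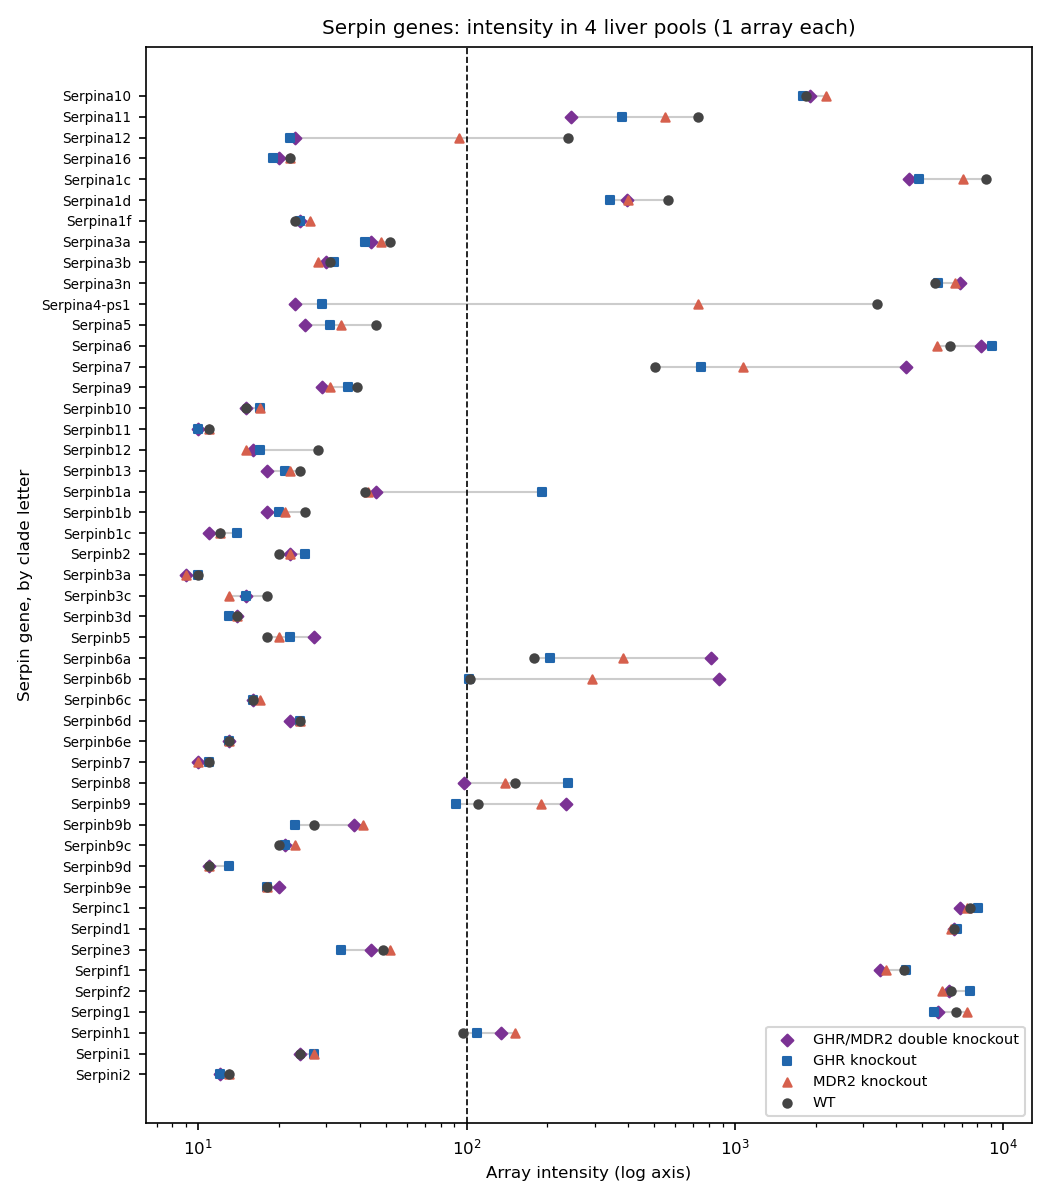
Intensity (log axis) of each of the 48 Serpin genes in the 4 liver pools, 1 array each, ordered by clade letter, with the level filter of 100 as a dashed line. The widest spreads belong to Serpina4-ps1, Serpina12, Serpina7 and Serpinb6b, while 28 genes lie left of the line on every array.

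The windows before the transcript starts of 5 members are shown first. Among the members over the filter that had a window, these had the widest spreads between genotypes. Serpina4-ps1, with the widest spread of all, and Serpinb1a had no window. Serpina12 and Serpina11 were lower in both pools without GHR, and Serpina7 was highest with both losses. Serpinb6a and Serpinb6b were higher together in both pools without MDR2. Each window shown is the 250 bases before a start that RefSeq lists on GRCm38.p6, read 5′ to 3′ on the gene's strand. Capitals mark matches to TTCNNNGAA, the palindromic letters that STAT factors, among them the STAT5 proteins of growth hormone signalling, can bind.
Serpina12, chr12:104044444-104044693, minus strand: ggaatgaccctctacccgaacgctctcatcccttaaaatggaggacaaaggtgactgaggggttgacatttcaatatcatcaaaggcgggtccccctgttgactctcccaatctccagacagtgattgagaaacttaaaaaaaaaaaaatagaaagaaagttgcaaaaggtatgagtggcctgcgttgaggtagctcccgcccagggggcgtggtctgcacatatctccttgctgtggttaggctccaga
Serpina11, chr12:103989958-103990207, minus strand: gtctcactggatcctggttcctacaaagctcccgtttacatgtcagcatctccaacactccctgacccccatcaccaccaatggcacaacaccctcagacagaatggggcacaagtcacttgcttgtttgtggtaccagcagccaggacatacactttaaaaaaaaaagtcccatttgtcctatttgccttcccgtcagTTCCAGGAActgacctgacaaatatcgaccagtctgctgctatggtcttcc
Serpina7, chrX:139085237-139085486, minus strand: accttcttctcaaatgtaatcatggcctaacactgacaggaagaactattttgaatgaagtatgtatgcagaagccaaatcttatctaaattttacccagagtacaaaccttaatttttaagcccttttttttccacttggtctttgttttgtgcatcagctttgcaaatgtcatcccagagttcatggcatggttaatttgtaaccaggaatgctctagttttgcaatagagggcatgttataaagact
Serpinb6a, chr13:34002795-34003044, minus strand: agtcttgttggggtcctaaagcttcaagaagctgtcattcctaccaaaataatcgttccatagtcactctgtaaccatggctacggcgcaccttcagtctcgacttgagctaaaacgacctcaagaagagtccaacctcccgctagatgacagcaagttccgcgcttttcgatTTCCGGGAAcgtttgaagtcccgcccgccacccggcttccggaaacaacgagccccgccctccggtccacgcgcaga
Serpinb6b, chr13:32965011-32965260, plus strand: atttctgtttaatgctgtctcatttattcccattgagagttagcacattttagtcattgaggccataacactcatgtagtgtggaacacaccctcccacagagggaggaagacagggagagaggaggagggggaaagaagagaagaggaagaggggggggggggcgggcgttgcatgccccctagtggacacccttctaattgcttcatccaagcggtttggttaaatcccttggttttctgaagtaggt
The Serpinb6b start in the table lies inside the span of the RefSeq gene. Serpina11 held TTCCAGGAA, 51 bases before the start shown, and Serpinb6a held TTCCGGGAA, 77 bases before the start shown. A further TTCCGGGAA lay 20 bases after that Serpinb6a start. Each of these genes has 2 listed starts. Both Serpina11 windows held the letters, but of the Serpinb6a windows only that of the start shown did. Over full windows of 250 bases before to 50 after each start, TTCNNNGAA was found in 8.3% of 32851 windows. In total 41 of the 48 members had a window, 49 windows in all, and 7 of these, of 5 genes, held the letters. The other 3 genes were Serpina1f, Serpinb2 and Serpinb9c, all under an intensity of 100 on every array. The palindromic consensus of the hepatocyte factor HNF1, searched on both strands without mismatch, was found in no member window and in 0.00913% of all windows. A match describes letters only.

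The clade a genes held the largest differences with loss of GHR, and these were mostly decreases. Serpina4-ps1, which RefSeq annotates as a transcribed pseudogene, had an intensity of 23 in the double knockout, 29 in the GHR knockout, 731 in the MDR2 knockout and 3380 in the WT pool. The 2 pools without GHR were under 100, and the MDR2 knockout pool lay well below the WT pool. The ratio was 31.8-fold lower in the double knockout than in the MDR2 knockout pool and 117-fold lower in the GHR knockout than in the WT pool, both against levels not shown to be above background. In the MDR2 knockout pool it was 4.62-fold lower than in the WT pool. It was the 1 member called by limma for GHR loss, with an average log2 effect of -5.93 (SE 0.43, adjusted p = 0.0124), among 20 members tested. That call was lost with trend and robust settings and without the level filter.

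Serpina12, which encodes the adipokine vaspin, showed a similar pattern at a lower level. Its intensity was 23 in the double knockout, 22 in the GHR knockout, 94 in the MDR2 knockout and 238 in the WT pool, so that only the WT pool passed the filter. It was 10.8-fold lower in the GHR knockout than in the WT pool and 2.53-fold lower in the MDR2 knockout than in the WT pool. Its limma effect of GHR loss was -2.73 (SE 0.33) with an adjusted p of 0.055. Serpina11 was at 246 in the double knockout, 379 in the GHR knockout, 551 in the MDR2 knockout and 727 in the WT pool, all 4 above the filter. It was 2.24-fold lower in the double knockout than in the MDR2 knockout pool and 1.92-fold lower in the GHR knockout than in the WT pool, with an average log2 effect of GHR loss of -1.05 (SE 0.15) and a limma adjusted p of 0.0788. Neither Serpina12 nor Serpina11 passed the test.

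Alpha-1 antitrypsin, the main plasma inhibitor of neutrophil elastase, is encoded in the mouse by several near-identical Serpina1 copies, and the split between them is uncertain on an array. Serpina1c was at 4466 in the double knockout, 4856 in the GHR knockout, 7081 in the MDR2 knockout and 8640 in the WT pool. Both pools without GHR were below both pools with it, by 1.59-fold in the double knockout against the MDR2 knockout pool and by 1.78-fold in the GHR knockout against the WT pool. The first of these came under 1.5-fold with cyclic loess, at -0.56 on the log2 scale. Serpina1d was at 397 in the double knockout, 343 in the GHR knockout, 401 in the MDR2 knockout and 564 in the WT pool, and only its 1.64-fold lower level in the GHR knockout than in the WT pool reached 1.5-fold. A pair of rows that name all of Serpina1a to Serpina1e differed less. One was at 7387, 7364, 8165 and 9207 in the double knockout, GHR knockout, MDR2 knockout and WT pools, and the other at 10330, 10531, 11490 and 12277. The GHR knockout pool was 1.25-fold and 1.17-fold below the WT pool on these shared rows.

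Serpina7 encodes thyroxine-binding globulin, a carrier of thyroid hormone in plasma, and it was the clade a member that was higher with loss of MDR2. Its intensity was 4354 in the double knockout, 748 in the GHR knockout, 1071 in the MDR2 knockout and 504 in the WT pool. The double knockout pool stood above all others, 5.82-fold higher than the GHR knockout and 4.07-fold higher than the MDR2 knockout pool. The MDR2 knockout pool was 2.13-fold and the GHR knockout pool 1.48-fold above the WT pool. The average log2 effect of MDR2 loss was 1.81 (SE 0.34) with a limma adjusted p of 0.0559, which missed the threshold. The gene is X-linked, and the GHR knockout pool carried Xist at 1400. What part this has in the Serpina7 differences was not tested.

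The remaining clade a members over the filter differed by less than 1.5-fold in all 5 comparisons. Serpina6, which encodes the cortisol carrier corticosteroid-binding globulin, was at 8268 in the double knockout, 9069 in the GHR knockout, 5692 in the MDR2 knockout and 6337 in the WT pool. Both pools without GHR were above both pools with it, by 1.45-fold in the double knockout against the MDR2 knockout pool and by 1.43-fold in the GHR knockout against the WT pool, with a limma adjusted p of 0.242. The first of these passed 1.5-fold with cyclic loess and with hepatocyte centring. Serpina3n, an antichymotrypsin-like acute phase gene, was at 6923 in the double knockout, 5724 in the GHR knockout, 6637 in the MDR2 knockout and 5574 in the WT pool, slightly higher in both pools without MDR2. Serpina10, the protein Z-dependent inhibitor of factor Xa, was at 1910 in the double knockout, 1798 in the GHR knockout, 2193 in the MDR2 knockout and 1835 in the WT pool. Another 6 clade a genes, Serpina16, Serpina1f, Serpina3a, Serpina3b, Serpina5 and Serpina9, ranged from 19 to 52.

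The clade a genes other than X-linked Serpina7 lie in a cluster of 28 RefSeq Serpin loci on chromosome 12. Read in chromosome order, the members over the filter were Serpina10, Serpina6, Serpina1d, Serpina1c, Serpina11, Serpina12, Serpina4-ps1 and Serpina3n. Of these, the 5 from Serpina1d to Serpina4-ps1 were at least 1.5-fold lower in the GHR knockout than in the WT pool, against 2.47% of all genes. The ends of this run were set by these same calls, so it is no test of a shared change. Within it, Serpina9 was under the filter, and Serpina1a and Serpina1e had no row of their own. Serpina12 and Serpina4-ps1 are direct neighbours among the Serpin loci. Serpina12 passed the filter through the WT array alone. The pair of rows that name all of Serpina1a to Serpina1e were 1.25-fold and 1.17-fold lower in that comparison. The flanking Serpina10, Serpina6 and Serpina3n were not lower by that much. Between the double knockout and the MDR2 knockout pool, 3 of these 5 were at least 1.5-fold lower (2 with cyclic loess), against 3.88% of all genes. Serpina1d stood at 397 against 401, and Serpina12 was under the filter in both pools.

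**Figure D2:**
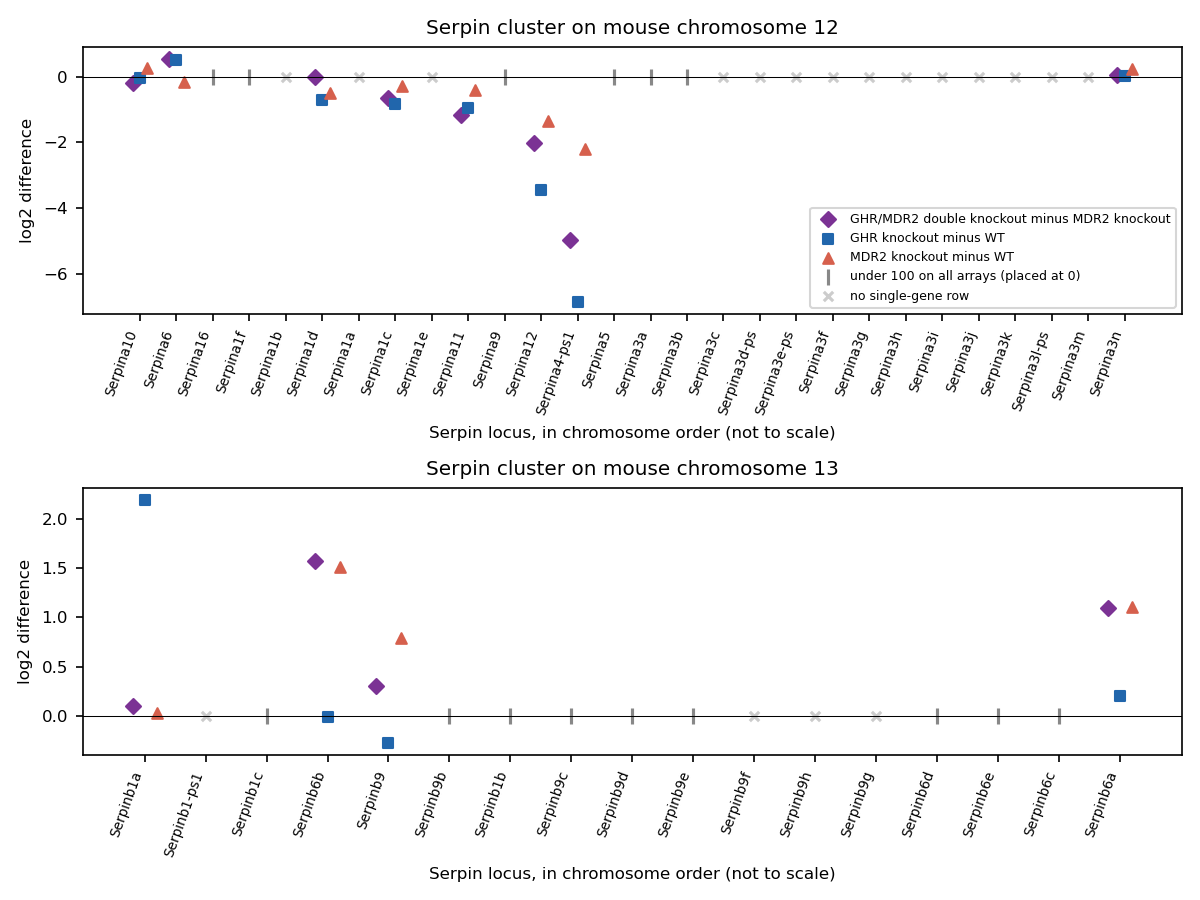
Differences in log2 intensity of Serpin genes over the level filter, in chromosome order (not to scale), on chromosomes 12 and 13, for the double knockout minus the MDR2 knockout, the GHR knockout minus WT and the MDR2 knockout minus WT pools. Grey ticks are members under 100 on all arrays and crosses are loci with no single-gene row, both placed at 0. On chromosome 12 the lowest values in each comparison are those of Serpina4-ps1, at -4.99, -6.86 and -2.21, and Serpina12 was under 100 on both arrays of the first comparison.

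Among the 24 clade b genes, 5 reached an intensity of 100, and all 5 differed by at least 1.5-fold in at least 1 of the 5 comparisons, as did 30.1% of the 10764 genes over the filter. Serpinb1a passed the filter through 1 high array alone. Serpinb6b was at 870 in the double knockout, 102 in the GHR knockout, 294 in the MDR2 knockout and 103 in the WT pool. The pools without MDR2 were both above those with it, by 8.53-fold in the double knockout against the GHR knockout pool and by 2.85-fold in the MDR2 knockout against the WT pool. Its paralog Serpinb6a, the mouse counterpart of the human cathepsin G inhibitor SERPINB6, was at 815 in the double knockout, 204 in the GHR knockout, 382 in the MDR2 knockout and 178 in the WT pool. It was likewise higher in both pools without MDR2, at 4.0-fold and 2.15-fold. Because the pair are paralogs, probes may be shared between them, and the split of signal is uncertain. Serpinb9, an inhibitor of granzyme B that protects cells from cytotoxic lymphocytes, was at 234 in the double knockout, 91 in the GHR knockout, 190 in the MDR2 knockout and 110 in the WT pool. It was 2.57-fold higher in the double knockout than in the GHR knockout pool and 1.73-fold higher in the MDR2 knockout than in the WT pool.

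These 3 clade b genes were the members called by limma for MDR2 loss. The average log2 effect was 1.55 (SE 0.24) for Serpinb6a with an adjusted p of 0.0394, 2.30 (SE 0.37) for Serpinb6b with an adjusted p of 0.0422, and 1.08 (SE 0.19) for Serpinb9 with an adjusted p of 0.0483. Called members were thus 3 of 20 higher and 0 of 20 lower, against 2.99% higher and 0.762% lower of all 10764 genes. Another 4 members had an unadjusted p under 0.05, 7 of 20 in all, against 23.6% of all genes. The calls were close to the threshold: Serpinb6b was lost with trend and robust settings, all but Serpinb6a were lost with median centring, and none was left with cyclic loess or without the level filter. For GHR loss the calls were 0 of 20 higher and 1 of 20 lower, against 0.204% and 0.316% of all genes. At an unadjusted p under 0.05 were 7 of 20, against 13.1% of all genes.

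Markers of other liver cells moved in the same pools. All 9 measured cholangiocyte markers passed the filter, and their summed intensity was 2616 in the double knockout, 726 in the GHR knockout, 1137 in the MDR2 knockout and 623 in the WT pool. Macrophage markers, 9 of 10 over the filter, summed to 10772 in the double knockout, 5468 in the GHR knockout, 8392 in the MDR2 knockout and 3873 in the WT pool. Both sums were highest in the double knockout pool and second highest in the MDR2 knockout pool, as were Serpinb6a, Serpinb6b and Serpinb9. Lyz2 made up much of the macrophage sum. It was at 5243 in the double knockout, 977 in the GHR knockout, 2879 in the MDR2 knockout and 847 in the WT pool. Between the double and the MDR2 knockout pool, 2 of the 9 macrophage markers were higher by 1.5-fold and 0 lower. All genes had 7.16% and 3.88%. Between the double knockout and the GHR knockout pool 5 were higher and 1, Clec4f, lower, against 9.93% and 9.91%. The 7 measured lymphocyte markers summed to 369 in the double knockout, 472 in the GHR knockout, 440 in the MDR2 knockout and 335 in the WT pool, and only Cd3e passed the filter. What part these cells have in the clade b differences was not tested.

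Serpinb1a and Serpinb8 stood apart in the GHR knockout pool. Serpinb1a, the counterpart of the human inhibitor of neutrophil elastase and cathepsin G, was at 46 in the double knockout, 191 in the GHR knockout, 43 in the MDR2 knockout and 42 in the WT pool. Only the GHR knockout array passed the filter, 4.55-fold above the WT array, and its limma adjusted p for GHR loss was 0.394. All 9 neutrophil markers, S100a8, S100a9 and Mpo among them, were under 100 on every array, with sums of 358 in the double knockout, 428 in the GHR knockout, 396 in the MDR2 knockout and 349 in the WT pool. Serpinb8, whose human counterpart inhibits furin, was at 98 in the double knockout, 239 in the GHR knockout, 139 in the MDR2 knockout and 152 in the WT pool. It was 1.57-fold higher in the GHR knockout than in the WT pool, a difference that came under 1.5-fold with cyclic loess and with median centring, and 2.44-fold lower in the double knockout than in the GHR knockout pool. Both genes were highest in the pool with Xist at 1400, and in the comparison without that array, double knockout against MDR2 knockout, they differed by 1.07-fold and 1.42-fold. GHR loss with MDR2 present and the Xist signal fall on the same array and cannot be told apart.

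The other 19 clade b genes ranged from 9 to 41 and are not shown to be expressed. They include Serpinb2, the plasminogen activator inhibitor 2 gene, Serpinb5 (maspin) and the Serpinb3 and most Serpinb9 copies. A further 3 rows that name Serpinb9d to Serpinb9g together were at 15 to 23. On chromosome 13, which holds 17 RefSeq Serpin loci, Serpinb6b and Serpinb9 are direct neighbours among the Serpin loci, while Serpinb6a lies at the far end of the cluster behind members under the filter.

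**Figure D3:**
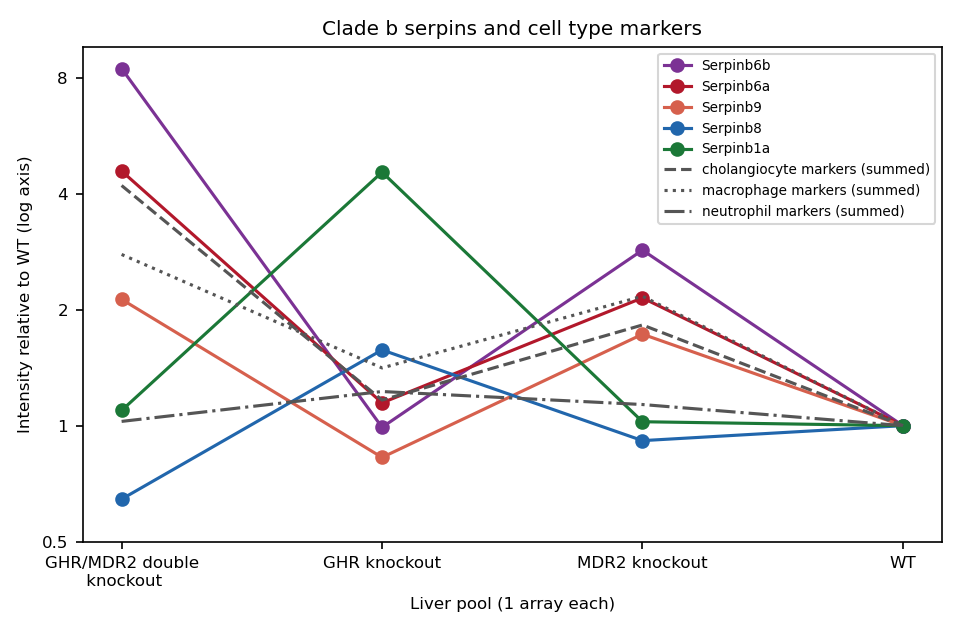
Intensity of the 5 clade b genes over the filter, and summed intensity of cholangiocyte, macrophage and neutrophil markers, relative to the WT pool (log axis), in the 4 liver pools of 1 array each; lines join values of 1 gene or list. Serpinb6b, Serpinb6a and Serpinb9 are highest in the double knockout pool, at 870, 815 and 234, while Serpinb1a and Serpinb8 are highest in the GHR knockout pool, at 191 and 239.

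The plasma inhibitors of clades c, d, f and g differed by at most 1.28-fold in any of the 5 comparisons. Serpinc1, antithrombin, was at 6887 in the double knockout, 8074 in the GHR knockout, 7348 in the MDR2 knockout and 7544 in the WT pool. Serpind1, heparin cofactor II, was at 6556 in the double knockout, 6735 in the GHR knockout, 6398 in the MDR2 knockout and 6551 in the WT pool, the narrowest spread of the 20. Serpinf2, the plasmin inhibitor alpha-2-antiplasmin, was at 6308 in the double knockout, 7528 in the GHR knockout, 5918 in the MDR2 knockout and 6408 in the WT pool. None of the 3 showed an order that separates the pools by either loss at 1.5-fold.

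Serpinf1 encodes pigment epithelium-derived factor, a secreted protein that inhibits vessel growth and no protease. It was at 3462 in the double knockout, 4339 in the GHR knockout, 3661 in the MDR2 knockout and 4279 in the WT pool, slightly lower in both pools without MDR2. Serping1, the C1 inhibitor of complement and kallikrein, was at 5715 in the double knockout, 5511 in the GHR knockout, 7332 in the MDR2 knockout and 6649 in the WT pool, slightly lower in both pools without GHR. Their limma adjusted p-values were 0.299 for Serpinf1 with MDR2 loss and 0.414 for Serping1 with GHR loss.

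Serpinh1, whose product HSP47 folds procollagen, was at 134 in the double knockout, 109 in the GHR knockout, 151 in the MDR2 knockout and 97 in the WT pool. It was 1.56-fold higher in the MDR2 knockout than in the WT pool, while the double knockout pool was 1.13-fold below the MDR2 knockout pool, and its limma adjusted p for MDR2 loss was 0.156. Col1a1, a collagen that HSP47 serves, was at 423 in the double knockout, 159 in the GHR knockout, 373 in the MDR2 knockout and 188 in the WT pool. Stellate cell markers summed to 10126 in the double knockout, 7133 in the GHR knockout, 8242 in the MDR2 knockout and 5851 in the WT pool, and 5 of the 10 were higher by 1.5-fold in the MDR2 knockout than in the WT pool, against 6.06% of all genes. Dcn made up the largest part of each sum. It was at 6466 in the double knockout, 4295 in the GHR knockout, 4928 in the MDR2 knockout and 3591 in the WT pool. Between the double and the MDR2 knockout pool 1 marker, Reln, was higher by 1.5-fold and 1, Lrat, was lower. All genes had 7.16% and 3.88%. The part of stellate cells in the Serpinh1 difference was not tested. Serpine3 and the clade i genes Serpini1 (neuroserpin) and Serpini2 ranged from 12 to 52. Of 8 pancreatic acinar markers, 6 were under 100 on all arrays.

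Counted over the family, 7 of the 18 members over the filter differed by 1.5-fold between the double knockout and the GHR knockout pool. Higher were 4 (Serpina7, Serpinb6a, Serpinb6b and Serpinb9), against 9.93% of all genes compared, and lower were 3 (Serpina11, Serpinb1a and Serpinb8), against 9.91%. Serpina11, at -0.62 on the log2 scale, came under 1.5-fold with cyclic loess, median centring and hepatocyte centring (-0.52, -0.56 and -0.47). Between the double knockout and the MDR2 knockout pool, 3 of 18 were higher (Serpina7, Serpinb6a and Serpinb6b), against 7.16% of all genes, and 3 were lower (Serpina11, Serpina1c and Serpina4-ps1), against 3.88%. In the GHR knockout against the WT pool, 2 of 20 were higher (Serpinb1a and Serpinb8), against 4.24%, and 5 were lower, against 2.47%. In the MDR2 knockout against the WT pool, 5 of 19 were higher (Serpina7, Serpinb6a, Serpinb6b, Serpinb9 and Serpinh1), against 6.06%, and 2 were lower (Serpina12 and Serpina4-ps1), against 3.58%. In the double knockout against the WT pool, 4 of 19 were higher, against 13.7%, and 5 were lower, against 7.58%. A member that passed the filter through 1 array alone, as Serpinb1a and Serpina12 did, could enter these counts because it differed, so the shares are no measure of the family as a whole.

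The median log2 difference of the members over the filter stayed near 0. It was 0.01 in the double knockout against the GHR knockout pool, where all genes had -0.06, and -0.05 in the double knockout against the MDR2 knockout pool, where all genes had 0.06. In the GHR knockout against the WT pool it was 0.03, with 0.10 for all genes, and in the MDR2 knockout against the WT pool it was -0.04, with -0.04 for all genes. In total 12 of the 20 members over the filter had a 1.5-fold difference in at least 1 of the 5 comparisons, against 30.1% of all genes over the filter. They were 6 of clade a, 5 of clade b and Serpinh1, and the other 8 over the filter differed by at most 1.45-fold.

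**Figure D4:**
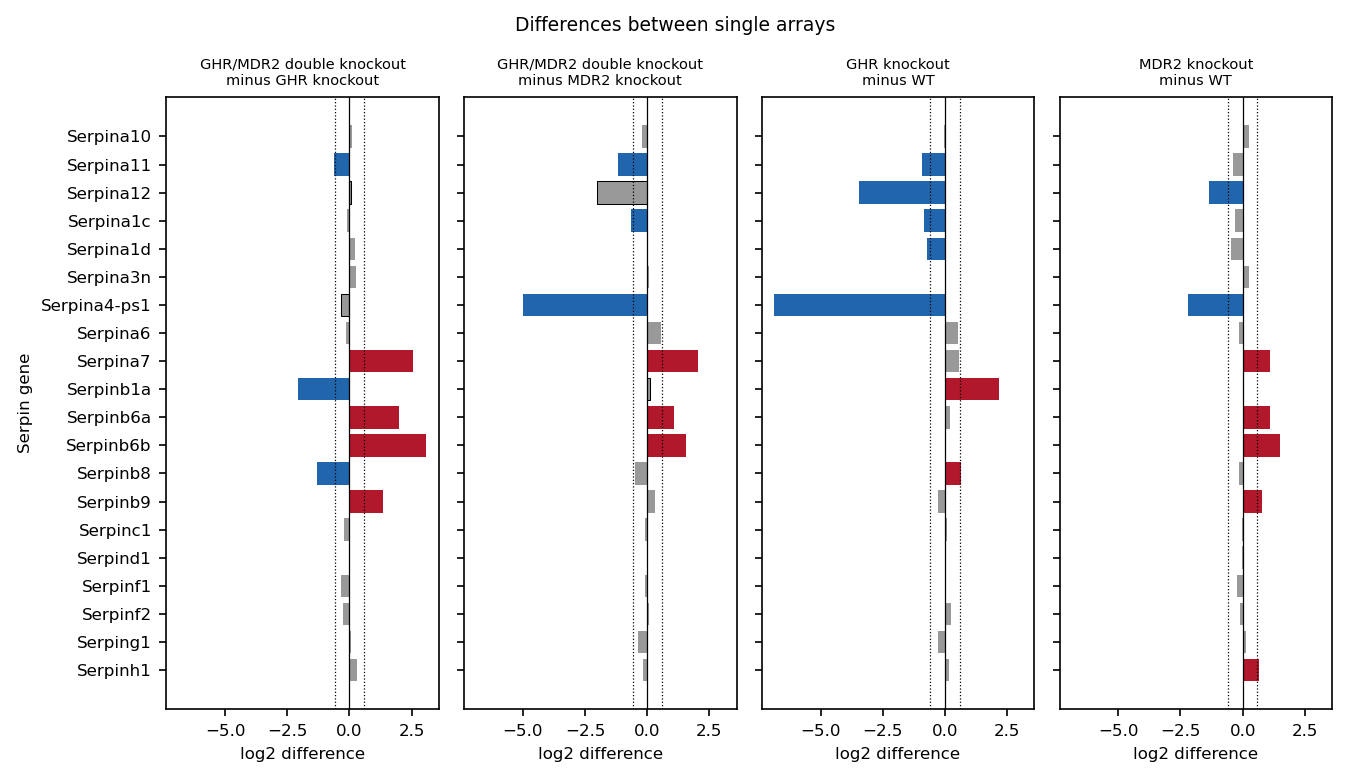
Differences in log2 intensity between single arrays for the 20 Serpin genes over the level filter, in 4 comparisons, with 1.5-fold as dotted lines. Red bars are at least 1.5-fold higher, blue bars at least 1.5-fold lower, grey bars neither, and outlined bars are under 100 on both arrays. Serpina4-ps1 reaches -6.86 and Serpinb6b 3.09.

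The effect of GHR loss could be read in pools with MDR2 and in pools without it, from arrays that are not shared. Non-additivity was the double knockout minus MDR2 knockout difference minus the GHR knockout minus WT difference. Over 10764 genes its robust SD was 0.32 (log2), and 1.77% of genes were at 1 or above and 1.91% at -1 or below. Of the 20 members, 4 were at 1 or above: Serpina4-ps1 at 1.87, Serpinb6b at 1.58, Serpina7 at 1.45 and Serpina12 at 1.40. For Serpina4-ps1 and Serpina12 both pools without GHR were under 100, so these values rest on levels that may lie within background. Serpinb6b was at 870 against 294 in the pools without MDR2 (double knockout against MDR2 knockout) and at 102 against 103 in those with it (GHR knockout against WT). At -1 or below were 2 members, Serpinb1a at -2.09 and Serpinb8 at -1.16, both through the GHR knockout array. Serpina11 was at -0.22, from log2 differences of -1.16 in the double knockout against the MDR2 knockout pool and -0.94 in the GHR knockout against the WT pool. With 1 array per genotype no residual is left to test these values.

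**Figure D5:**
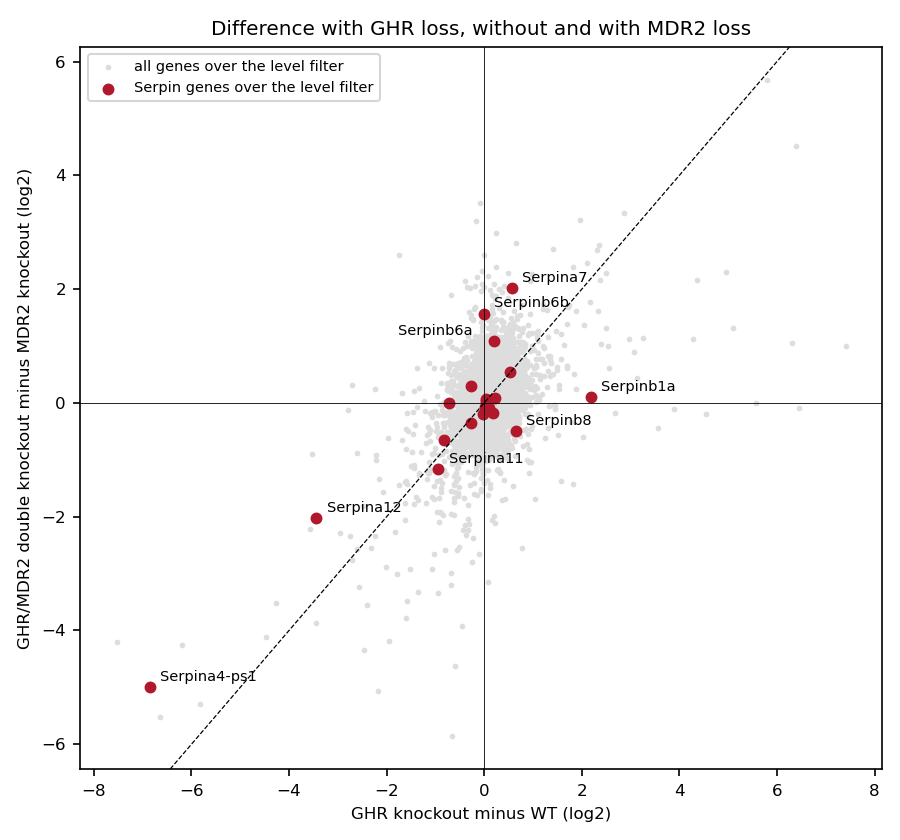
Log2 difference with GHR loss in pools with MDR2 (GHR knockout minus WT, horizontal) and without it (double knockout minus MDR2 knockout, vertical); grey points are all genes over the level filter, red points are the 20 Serpin genes and the dashed line marks equal differences. Serpina7 and Serpinb6b lie above the line, at non-additivity 1.45 and 1.58, and Serpinb1a and Serpinb8 below it, at -2.09 and -1.16.

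Of the proteases that serpins can block, 25 were measured and 21 passed the filter. In the double knockout against the WT pool 4 of these 21 were higher by 1.5-fold, against 13.7% of all genes, and 5 were lower, against 7.58%. In limma 3 of the 21 rose with MDR2 loss and 0 fell, against 2.99% and 0.762% of all genes. At an unadjusted p under 0.05 were 6 of the 21, against 23.6% of all genes. St14, the epithelial membrane protease matriptase, was at 257 in the double knockout, 72 in the GHR knockout, 195 in the MDR2 knockout and 66 in the WT pool (limma adjusted p = 0.0185). Ctss, the lysosomal cathepsin S, was at 1410 in the double knockout, 450 in the GHR knockout, 825 in the MDR2 knockout and 319 in the WT pool (limma adjusted p = 0.0225). Plat, tissue plasminogen activator, was at 137 in the double knockout, 34 in the GHR knockout, 75 in the MDR2 knockout and 38 in the WT pool (limma adjusted p = 0.0494). All 3 calls were lost without the level filter, where limma called no gene for either loss, and Plat was also lost with cyclic loess, with median centring and with trend and robust settings. With GHR loss 0 rose and 0 fell, with 4 at an unadjusted p under 0.05, against 13.1% of all genes.

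The clotting protease gene F11, factor XI, was at 326 in the double knockout, 724 in the GHR knockout, 783 in the MDR2 knockout and 1268 in the WT pool, lowest with both losses, with a limma adjusted p of 0.0527 for MDR2 loss. Prothrombin (F2), the target of antithrombin, was at 5836 in the double knockout, 7091 in the GHR knockout, 5980 in the MDR2 knockout and 6886 in the WT pool. The neutrophil protease genes Elane, Prtn3 and Ctsg and the granzyme gene Gzmb were under 100 on every array.

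Among 24 tested protease inhibitors of other families, 3 rose with MDR2 loss and 0 fell in limma, against 2.99% and 0.762% of all genes, with 11 at an unadjusted p under 0.05, against 23.6%. They were Timp1, an inhibitor of matrix metalloproteinases, at 229 in the double knockout, 42 in the GHR knockout, 129 in the MDR2 knockout and 40 in the WT pool (limma adjusted p = 0.0235), the trypsin inhibitor gene Spink1 and the cathepsin inhibitor gene Cstb. With GHR loss 1 rose, against 0.204% of all genes, and it was Spink1 again, at 263 in the double knockout, 125 in the GHR knockout, 77 in the MDR2 knockout and 28 in the WT pool (limma adjusted p = 0.0177 for GHR loss and 0.0293 for MDR2 loss). Cstb was at 1993 in the double knockout, 758 in the GHR knockout, 1293 in the MDR2 knockout and 747 in the WT pool (limma adjusted p = 0.0489 for MDR2 loss). The Timp1, Spink1 and Cstb calls were all lost without the level filter, and that of Cstb also with cyclic loess and with median centring. Slpi, a secreted inhibitor of neutrophil elastase, was at 571 in the double knockout, 76 in the GHR knockout, 207 in the MDR2 knockout and 89 in the WT pool, highest with both losses. Mug2, a macroglobulin of mouse plasma that traps proteases, was at 1511 in the double knockout, 4098 in the GHR knockout, 6461 in the MDR2 knockout and 7757 in the WT pool and passed the test for neither loss (limma adjusted p = 0.165 for GHR loss and 0.163 for MDR2 loss).

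Angiotensinogen, the blood pressure hormone precursor, is a serpin by fold under the symbol Agt, outside the 48. It was at 4895 in the double knockout, 7032 in the GHR knockout, 4286 in the MDR2 knockout and 4266 in the WT pool. The GHR knockout pool was 1.65-fold above the WT pool, and the limma adjusted p for GHR loss was 0.379. Of 5 tested genes of serpin uptake and cofactors, 0 passed in limma for either loss. Only Lrp8 and Plaur of the 7 measured stayed under 100. Vldlr, a lipoprotein receptor that also takes up serpin complexes, was at 215 in the double knockout, 775 in the GHR knockout, 99 in the MDR2 knockout and 99 in the WT pool, and its limma adjusted p for GHR loss was 0.183. At an unadjusted p under 0.05 there was 1 such gene for GHR loss and 0 for MDR2 loss.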

How the data were processed

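The 4 arrays were Affymetrix whole-transcript arrays of liver RNA, 1 per genotype, each of 3 pooled livers. Per the submitters' processing notes, which name RMA and Affymetrix Expression Console 1.1, the authors deposited normalized intensity values. RMA, as usually run, corrects background, normalizes by quantiles and summarises probes. Its values are usually log2, but the values the authors deposited run from 6 to 22355 without decimals, so they were read as linear and log2 was taken. The authors' normalization was kept. No source used here names the genome build of the probe sets.

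Of 35556 rows, GEO's platform annotation gave 21789 exactly 1 gene symbol, 1621 several and 12146 none. All 48 Serpin rows matched RefSeq gene identifiers of GRCm38.p6. Another 5 rows named several Serpin genes and were only described. RefSeq lists 69 Serpin symbols, and the 21 that are not members were not analysed here, apart from 5 named on those shared rows. No protein sequences were used here, and the planned protein identities were not computed.

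Single arrays were compared by log2 difference, counted at 1.5-fold where the higher array reached 100. limma 3.58.1 (R 4.3.3, lmFit and eBayes) fitted GHR and MDR2 loss as additive effects, with 1 residual and 4.34 prior degrees of freedom, at an adjusted p of 0.05. The fit was first tested on simulated data. The residual behind its p-values is the departure from additivity between pools, not the spread between animals. Alternatives were the level filter (none, or 329, the 75th percentile), cyclic loess, centring on the median or on hepatocyte genes (15 markers), averaging a gene's rows, and limma with trend and robust settings. No member had more than 1 row. The members, gene lists and tests were chosen with earlier results of these data known. Members were named in full where they passed the filter and differed by 1.5-fold, reached 1000 or were called, and the other lists by their largest differences. F2 and the genes named as under 100 in those lists were chosen after their values were seen.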

Additional observations from a re-analysis of the deposited data

Results flagged for a closer look

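The difference with GHR loss ran in opposite directions in the 2 backgrounds for 2 members, each by more than 0.23, the robust SD of a single log2 difference. The difference between the backgrounds was not tested. How many of all genes do the same was not counted, so such a reversal is not shown to be particular to these members. Serpinb8 had a log2 difference of -0.50 in the double knockout against the MDR2 knockout pool and 0.65 in the GHR knockout against the WT pool. Serpinb9 had 0.30 in the double knockout against the MDR2 knockout pool and -0.27 in the GHR knockout against the WT pool. Neither Serpinb9 difference reached 1.5-fold, and its non-additivity was 0.57. The second comparison of each pair includes the pool with Xist at 1400.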

How the results depend on the processing

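No called difference of a member changed sign with cyclic loess, median centring or hepatocyte centring, and all 282 recomputed member differences moved by less than 0.23 (log2), while 24 uncalled ones changed sign. Each centring shifts all genes of a comparison by the same amount, too small to reverse a 1.5-fold difference. Only cyclic loess could move members differently from each other. The all-gene median shifted by -0.12 with median centring in the GHR knockout against the WT pool, and with hepatocyte centring by 0.16 in the double knockout against the GHR knockout, 0.12 in the MDR2 knockout against the WT and 0.18 in the double knockout against the WT pool. Of 82 recomputed counts, 68 stayed within 1.5 times. The 68 include those from averaging a gene's rows, which could not change because no member had more than 1 row. With the level filter at 329, members lower in the double knockout than in the GHR knockout pool were 1 in place of 3, higher in the GHR knockout than in the WT pool 0 in place of 2, higher in the MDR2 knockout than in the WT pool 2 in place of 5, lower there 1 in place of 2, and lower in the double knockout than in the WT pool 3 in place of 5; fewer genes pass that filter. With cyclic loess and with median centring, 1 member was higher in the GHR knockout than in the WT pool, in place of 2, so the share of higher among called members was 16.7% in place of 28.6%. With cyclic loess that share was 66.7% in place of 50.0% in the double knockout against the MDR2 knockout pool, and with hepatocyte centring 55.6% in place of 44.4% in the double knockout against the WT pool. Over all genes the share of higher calls in the GHR knockout against the WT pool was 41.5% with median centring and 49.8% with cyclic loess, in place of 63.2%. In the double knockout against the MDR2 knockout pool it was 49.3% with median centring, in place of 64.9%. With hepatocyte centring it was 70.5% in place of 50.0% in the double knockout against the GHR knockout pool, 80.6% in place of 62.9% in the MDR2 knockout against the WT pool and 81.0% in place of 64.4% in the double knockout against the WT pool.

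The limma calls were less stable. For GHR loss, the 1 lower member became 0 with trend and robust settings (7 members at an unadjusted p under 0.05) and 0 without the level filter (8). For MDR2 loss, the 3 higher members became 0 without the level filter (9), 0 with cyclic loess (7) and 1 with median centring, and 2 with trend and robust settings. The cause was not tested. Leaving out the GHR knockout array, an alternative chosen after seeing the data, leaves no residual degree of freedom and so no test, and the 1.5-fold counts of GHR loss are then 3 higher and 3 lower. Further 1.5-fold calls that came or went with a scaling were Serpinb8, lower in the double knockout than in the MDR2 knockout pool with median centring and no longer lower than in the WT pool with hepatocyte centring, and, with hepatocyte centring, Serpina7 higher in the GHR knockout and Serpinh1 higher in the double knockout than in the WT pool. The non-additivity counts stayed at 4 and 2 with cyclic loess and without the level filter. No paired analysis was possible because each genotype is 1 array with no replicate number. Without detection calls, values under 100 limit every fold printed against them.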
